A study of Mus musculus with 18 samples.

Results

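The genes described here are 5 Hox genes of the anterior and central parts of their clusters: Hoxc4, Hoxc8, Hoxa5, Hoxa7 and Hoxb5. They were taken by symbol from the annotation of the Affymetrix MOE430A array, on which 12393 genes have a probe set of 1 symbol, and each of the 5 is covered by exactly 1 probe set. The study measured RNA of 3 organs that arise along the Müllerian duct of the mouse, taken at birth: the oviduct, the uterus and the vagina. The DES groups came from mothers injected with diethylstilbestrol (DES), a synthetic estrogen, at 67 µg per kg of body weight on each of fetal days 10 to 18. The oil groups came from mothers given the oil vehicle alone. The 6 groups are DES oviduct, oil oviduct, DES uterus, oil uterus, DES vagina and oil vagina, with 3 arrays each, except that 1 of the 3 DES vagina arrays was made on an older chip and is given apart. All mice were of the ICR stock, and the labels name no transgene or deletion. The labels name 3 litters as the source of the RNA but do not state whether an array number stands for a litter, so p-values measure only the spread between these arrays, which may be partly technical.

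Hox genes encode homeodomain transcription factors that give cells along the body axis their regional identity. They lie in 4 clusters, Hoxa to Hoxd, and genes at the same relative place in different clusters form a paralog group. The order of the genes in a cluster goes with the order of their expression domains from anterior to posterior. In the Müllerian duct the genes at the posterior end of the clusters, such as Hoxa10, Hoxa11 and Hoxa13, are known for specifying the uterus, the cervix and the upper vagina. The genes described here lie further towards the anterior end and are better known from the neck, the thorax and the internal organs of the trunk. Hoxc4 and Hoxc8 lie on mouse chromosome 15, with Hoxc5 and Hoxc6 between them. Hoxa5 and Hoxa7 lie on chromosome 6 with Hoxa6 between them, and Hoxb5 lies on chromosome 11.

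Upstream sequences are shown for the members for which RefSeq gives a start in the table used, because the levels of these members went together along the duct. Of the 5 genes, 3 had an entry. Each sequence below is the 250 bases before the annotated start, written 5′ to 3′ on the strand of the gene in build GRCm38.p6. The Hoxc4 stretch is chr15:103034145-103034394 on the plus strand, the Hoxa5 stretch chr6:52204588-52204837 on the minus strand and the Hoxa7 stretch chr6:52218574-52218823 on the minus strand. Capitals mark TAAT, the core that many homeodomains bind, and TTTATG, a core of posterior Hox and Cdx proteins, on either strand.
Hoxc4: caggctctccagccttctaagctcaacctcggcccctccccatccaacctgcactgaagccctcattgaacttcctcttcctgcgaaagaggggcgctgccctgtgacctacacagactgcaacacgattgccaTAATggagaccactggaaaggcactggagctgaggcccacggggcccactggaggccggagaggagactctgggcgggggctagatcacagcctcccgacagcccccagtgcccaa
Hoxa5: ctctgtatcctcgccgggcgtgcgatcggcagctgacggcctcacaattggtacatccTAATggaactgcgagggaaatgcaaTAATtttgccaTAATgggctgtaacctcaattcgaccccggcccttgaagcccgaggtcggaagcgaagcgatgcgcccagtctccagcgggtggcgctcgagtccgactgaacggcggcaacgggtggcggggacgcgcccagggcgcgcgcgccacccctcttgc
Hoxa7: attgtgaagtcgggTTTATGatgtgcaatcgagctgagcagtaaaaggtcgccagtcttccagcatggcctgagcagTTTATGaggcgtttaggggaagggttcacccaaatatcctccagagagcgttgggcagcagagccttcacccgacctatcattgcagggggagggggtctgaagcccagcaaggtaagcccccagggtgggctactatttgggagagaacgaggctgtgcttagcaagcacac
TAAT was found 3 times in the Hoxa5 stretch, 1 time in the Hoxc4 stretch and 0 times in the Hoxa7 stretch, and 54.9% of all 32851 RefSeq stretches of this length hold it. TTTATG was found 2 times in the Hoxa7 stretch and in neither of the others, and 10.8% of all stretches hold it. The cofactor-type core TGATNNAT, held by 7.68% of all stretches, and the palindromic estrogen response element (GGTCA and TGACC, 3 bases apart), held by 0.0639%, were found in none of the 3. The searched motifs do not overlap each other in these stretches, and a match describes letters only.

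The arrays were checked before the genes were compared. The arrays numbered 1 and 2 shared a scan day, those numbered 3 had another, and between 52.7% and 58.6% of probe sets were called Present on the first day against 63.7% to 66.3% on the second. The names of the arrays numbered 3 also give 19 days post coitum, where those of the other arrays with a name of their own give day 0 after birth, so that scan day and stated age cannot be told apart. For oil oviduct array 1 the file of single-array results holds a copy of DES oviduct array 1, so its signals were taken from the deposited value table, which has no detection calls. The record of DES oviduct array 3 names the vagina as its sample type, while its title names the oviduct. Its signal was 4219 (Present) for Ovgp1, the oviduct glycoprotein, and 90.4 (Present) for Krt5, a basal keratin of the vaginal epithelium. For Hoxd13, a gene of the posterior duct, it was 4.15 (Absent). Of the other vaginal markers, Hoxa13 (45.2) and Trp63 (39.2) were Present there, and Krt14 (53.1) and Krt15 (129) Absent. Krt5 and Hoxa13 were Present on no other DES oviduct array. The oviduct markers Rsph1 (2824), Tekt1 (631) and Foxj1 (681) were Present on array 3 as well. The 6 fixed vaginal markers summed to between 15308 and 24442 in DES vagina and between 2831 and 8937 in oil vagina, and to between 177 and 1248 on the arrays of the other 4 groups. The 5 oviduct markers summed to between 8737 and 9834 in DES oviduct and to between 1849.7 and 2259.5 in oil oviduct, where the ciliated-cell genes Rsph1, Foxj1 and Tekt1 were Absent on both arrays with calls.

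Hoxc4 transcripts were highest in the oviduct in both treatments. Hoxc4 is the gene at the anterior end of the Hoxc cluster and is known for its part in patterning the cervical vertebrae. Its probe set, 1422870_at, had a scaled signal of 409, 395 and 697 on DES oviduct arrays 1 to 3, and of 571, 589 and 1088 on oil oviduct arrays 1 to 3. The signal was 8.76, 15.6 and 49.1 in DES uterus and 32.03, 37.2 and 144 in oil uterus. It was 16.7 and 7.38 on DES vagina arrays 2 and 3, and 12.3, 15.1 and 47.7 in oil vagina. On MOE430A, all oviduct arrays thus lay above all arrays of the other organs, and outside the oviduct oil uterus array 3 alone was called Present. DES vagina array 1, on the older chip, also called Hoxc4 Present and is given apart. The oviduct exceeded the uterus by a log2 change of 3.26 in DES (SE 0.406, adjusted p = 9.95e-05) and 3.02 in oil (SE 0.406, adjusted p = 0.000453). The DES value corresponds to at least a 7.73-fold difference, a lower bound because every DES uterus array was called Absent. Against vagina the difference was at least 9.47-fold in DES (adjusted p = 9.35e-05) and at least 10.6-fold in oil (adjusted p = 2.02e-05). In bulk organs, fewer cells of a type and less RNA per cell cannot be told apart. Between DES and oil, the log2 change was -0.54 in oviduct (SE 0.406, adjusted p = 0.561), -0.77 in uterus (SE 0.406, adjusted p = 0.320) and -0.33 in vagina (SE 0.454, adjusted p = 0.890), and none passed the test. The Hoxc4 signal of DES oviduct array 3, the array with the conflicting record, was the highest of the DES oviduct and above every array of uterus and vagina.

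Hoxc8 showed the same order of organs and was in addition lower in DES oviduct than in oil oviduct. Hoxc8 is known for patterning the lower thoracic skeleton and the motor neurons that supply the forelimb. Its probe set, 1452412_at, had a signal of 583, 675 and 638 in DES oviduct and of 1269, 1239 and 853 in oil oviduct. The signal was 126, 111 and 73.2 in DES uterus and 148, 223 and 127 in oil uterus. In vagina it was 66.7 and 79.0 in DES and 80.9, 94.2 and 68.4 in oil. The oviduct arrays stood apart from all others, and the arrays of DES and oil did not overlap in oviduct or in uterus. In uterus the gap was narrow, between 126 in DES and 127 in oil. The probe set was called Present on all arrays with calls but oil vagina array 2, so that a low level was measurable in uterus and vagina too. The oviduct exceeded the uterus by a log2 change of 2.31 in DES (SE 0.229, adjusted p = 9.8e-06) and 2.55 in oil (SE 0.229, adjusted p = 1.02e-05). It exceeded the vagina by 2.66 in DES (SE 0.257, adjusted p = 5.74e-06) and 3.33 in oil (SE 0.229, adjusted p = 1.69e-07).

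In the oviduct, Hoxc8 fell with DES to a mean of 632 ± 46.2, against 1120.4 ± 232 in oil (SD, n = 3 each, log2 change -0.78, SE 0.229, adjusted p = 0.0474). The change was -0.96 within the first scan day (adjusted p = 0.0175) and -0.40 between the single arrays of the second day, and with scan day as a block the adjusted p was 0.00954. The call did not hold when any of 11 arrays was left out: DES oviduct 1, 2 or 3, DES uterus 2, DES vagina 2 or 3, oil oviduct 1 or 2, oil uterus 1, or oil vagina 1 or 2. The highest adjusted p was 0.181, without oil oviduct array 1. Without that array and DES oviduct array 3, the adjusted p was 0.257 (log2 change -0.69). In uterus the change was -0.54 (adjusted p = 0.189) and in vagina -0.11 (adjusted p = 0.949), and neither passed. The difference of the DES effect was 0.24 for uterus minus oviduct (adjusted p = 0.998) and 0.67 for vagina minus oviduct (adjusted p = 0.660), so the oviduct change was not shown to differ from that in the other organs. The 6 tested mesothelial markers moved with Hoxc8, summing to between 2394 and 3077 in DES oviduct and between 6689 and 7889.9 in oil oviduct. Neuron and Schwann cell markers, and ovary and germ cell markers, also had lower sums on every DES oviduct array than on any oil oviduct array. The part of these cell types in the Hoxc8 change was not tested.

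**Figure D1:**
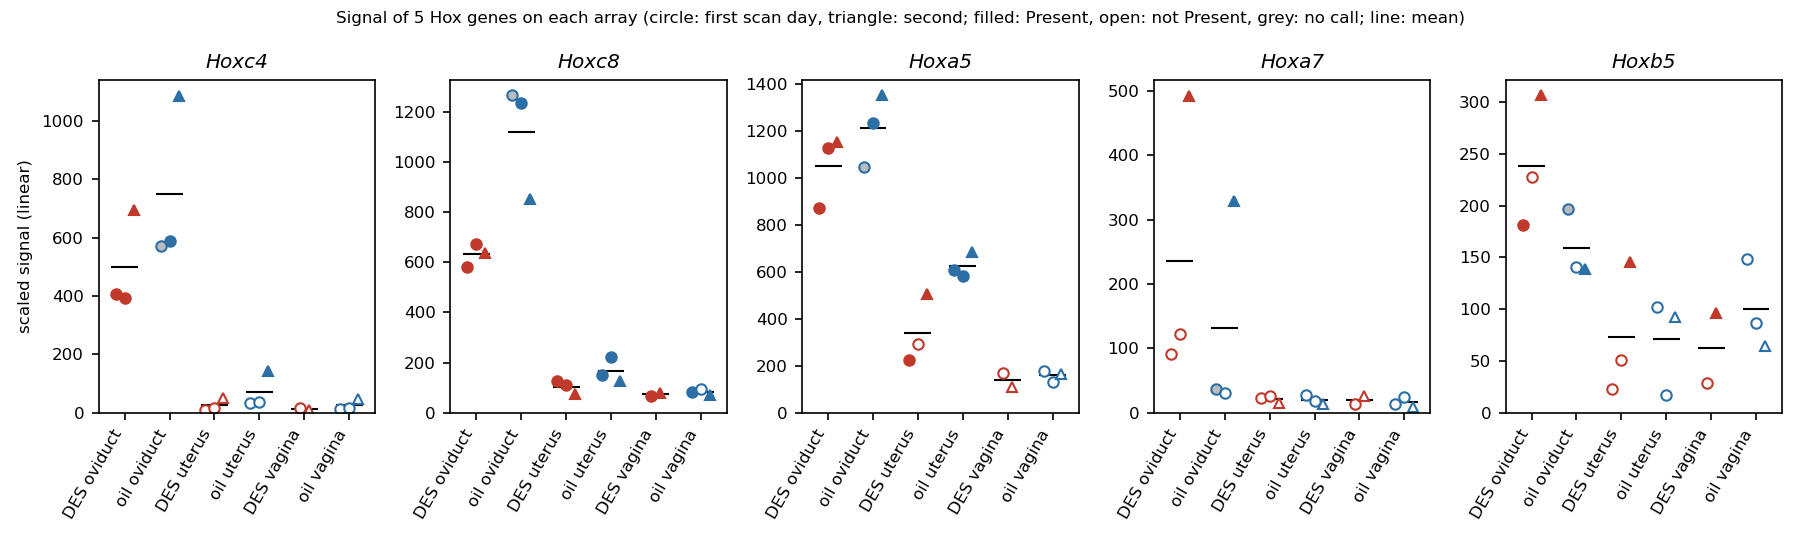
Scaled signal (linear axis) of the 5 Hox genes on each of the 17 arrays, in panels by gene and columns by group, with DES in red and oil in blue. Circles stand for the first scan day and triangles for the second, filled symbols for Present, open ones for Absent or Marginal and grey ones for the array without calls, and lines mark group means. The oviduct arrays lie above all others for Hoxc4, Hoxc8 and Hoxa5, while Hoxa7 is Present on 2 arrays of the second scan day only.

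Hoxa5 declined in steps from oviduct to uterus to vagina, and in the uterus it was lower with DES. Hoxa5 is known for its requirement in the lung and in the skeleton at the boundary of neck and thorax. Its probe set, 1448926_at, had a signal of 871, 1126 and 1154 in DES oviduct and of 1046, 1232 and 1354 in oil oviduct. The signal was 222, 293 and 504 in DES uterus and 605, 582 and 683 in oil uterus. In vagina it was 170.1 and 110.3 in DES and 177, 132 and 166 in oil. The arrays of 1 treatment did not overlap between any of the organs, and no vagina array was called Present. The oviduct exceeded the uterus by a log2 change of 1.60 in DES (SE 0.235, adjusted p = 0.000392), and in oil the difference of 0.92 (SE 0.235) did not pass (adjusted p = 0.0667). With scan day in the model as a block, the oil difference passed (adjusted p = 0.0121), as it did within the first scan day (adjusted p = 0.0288) and without DES uterus array 1 (adjusted p = 0.0394) or DES uterus array 3 (adjusted p = 0.0173). The uterus exceeded the vagina by 1.79 in oil (SE 0.235, adjusted p = 0.000187). In DES that difference was 1.06 (SE 0.263, adjusted p = 0.0516), and it was called once scan day entered as a block (adjusted p = 0.00813) or without DES uterus array 1 (adjusted p = 0.0174). The oviduct exceeded the vagina at least 6.33-fold in DES (adjusted p = 7.55e-06) and by a log2 change of 2.71 in oil (SE 0.235, adjusted p = 1.66e-06).

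In the uterus, Hoxa5 fell with DES to a mean of 340 ± 147, against 623 ± 52.9 in oil (SD, n = 3 each, log2 change -0.89, SE 0.235, adjusted p = 0.0246). The arrays of the treatments did not overlap. The change was -1.12 within the first scan day (adjusted p = 0.00221) and -0.41 between the single arrays of the second, and DES uterus array 3 was the highest of its group. The call did not hold without DES uterus array 1 or 2, or without any 1 of the 3 oil uterus arrays (up to an adjusted p of 0.137 for DES uterus array 1), and it held when any of the other 12 arrays was left out. In oviduct the change was -0.20 (SE 0.235, adjusted p = 0.751) and in vagina -0.16 (SE 0.263, adjusted p = 0.915). The difference of the DES effect was -0.68 for uterus minus oviduct (adjusted p = 0.602) and 0.73 for vagina minus uterus (adjusted p = 0.930), so the uterine change was not shown to differ from that in the other organs. The mesothelial markers summed to between 1560.4 and 1976 in DES uterus and between 3413 and 4094 in oil uterus. Neuron and Schwann cell markers summed to between 1943 and 2125 in DES uterus and between 2843 and 3446 in oil uterus. Leukocyte markers (8 of 8 tested) summed to between 4277 and 5462 in DES uterus and between 3049 and 3709 in oil uterus. Of these 8, Cd14 alone was called with DES in uterus (1751 ± 362 against 528 ± 184 in oil), and it weighs heavily in that sum. Csf1r (1236 against 1163) and Ptprc (101 against 115) were not called. The part of these cell types in the Hoxa5 change was not tested.

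Hoxa7 was detected on 2 arrays, both of the oviduct and both of the second scan day. Hoxa7 is a neighbour of Hoxa5 that is best known from blood cell progenitors and the axial skeleton. Its probe set, 1449499_at, had a signal of 90.7, 123 and 493 in DES oviduct and of 36.3, 30.9 and 328 in oil oviduct. It was between 15.3 and 25.7 in DES uterus, between 13.0 and 27.8 in oil uterus, 13.3 and 25.2 in DES vagina, and between 9.10 and 24.5 in oil vagina. Every oviduct array lay above every uterus and vagina array, yet within the oviduct array 3 of each treatment stood far above arrays 1 and 2. Present calls were made on 0 of the 10 first-day arrays with calls and on 2 of the 6 second-day arrays. None of the oviduct differences passed. As all uterus and vagina arrays were Absent, folds were taken with these arrays at no less than their lowest Present signal. The fold between oviduct and uterus was then 3.86 in DES (adjusted p = 0.0590) and 2.003 in oil (adjusted p = 0.485). Against vagina it was 3.32 in DES (adjusted p = 0.0807) and 1.96 in oil (adjusted p = 0.334). These folds do not allow for the spread between arrays and rest largely on array 3 of each oviduct group. DES oviduct arrays 1 and 2 and oil oviduct array 2 were themselves Absent. The fitted log2 change against uterus within the first scan day was 1.29 in DES and 0.27 in oil. Between the single arrays of the second day, the log2 difference was 3.47 in DES and 3.002 in oil. With scan day as a block the adjusted p in DES was 0.0123 against uterus and 0.0149 against vagina, and without oil oviduct array 3 it was 0.0101 and 0.0154. Hoxa7 entered the fit through its 2 oviduct arrays alone, so these values are partly set by the filter on calls. Between DES and oil in oviduct, where all 3 DES arrays were higher than oil arrays 1 and 2, the change was 0.90 (SE 0.575, adjusted p = 0.460). Without oil oviduct array 3 it was 1.72 (adjusted p = 0.0450). The share of the second scan day, or of the age stated for its arrays, in the Hoxa7 signal cannot be told apart.

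Hoxb5 was near the limit of detection in most arrays. Hoxb5 is known from the neural crest cells of the gut and from blood stem cells in the mouse. Its probe set, 1418415_at, had a signal of 181, 228 and 307 in DES oviduct and of 197, 141 and 139 in oil oviduct. The signal was 23.0, 51.3 and 146 in DES uterus and 102, 17.4 and 92.6 in oil uterus. In vagina it was 28.4 and 96.0 in DES and 148, 86.7 and 64.4 in oil. The DES oviduct arrays were above all DES uterus and DES vagina arrays, whereas the oil oviduct arrays overlapped those of oil vagina. The probe set was called Present on 1 of 10 first-day arrays and on 4 of 6 second-day arrays. The oviduct minus uterus change was 1.51 in DES (SE 0.449, adjusted p = 0.0728) and 1.01 in oil (SE 0.449, adjusted p = 0.416), and the oviduct minus vagina change was 1.60 in DES (SE 0.502, adjusted p = 0.0873) and 0.57 in oil (SE 0.449, adjusted p = 0.720). Both DES differences passed under a scan day block (adjusted p = 0.0199 and 0.0213). They also passed without DES uterus array 3 (adjusted p = 0.0190 and 0.0480), and the first passed without oil uterus array 2 (adjusted p = 0.0431). DES minus oil gave 0.49 in oviduct (adjusted p = 0.659), -0.01 in uterus (adjusted p = 0.997) and -0.53 in vagina (adjusted p = 0.805).

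Across the 5 genes, the data placed the highest levels in the oviduct. In DES, 3 of the 5 genes (Hoxc4, Hoxc8 and Hoxa5) were higher in oviduct than in uterus, where 2.8% of all 16702 probe sets tested were called higher. The same 3 were higher in oviduct than in vagina, against 2.72% of all probe sets. In oil, 2 of the 5 were higher in oviduct than in uterus (1.01% of all probe sets) and 3 of the 5 were higher in oviduct than in vagina (2% of all). With scan day as a block, Hoxb5 and Hoxa7 were called as well in both DES comparisons, where 5.04% and 4.72% of all probe sets were called higher. Uterus against vagina gave 0 calls in DES by limma (1.64% of all probe sets in either direction, and unadjusted p under 0.05 for Hoxa5 alone), or 1 of 5 against 1.04% with the block, and 1 in oil, Hoxa5 (1.38% of all called higher). Hoxc8 was higher in oil uterus than in oil vagina by 0.78 (adjusted p = 0.0731), which was called once scan day entered as a block (adjusted p = 0.0149), giving 2 of 5 against 3.59% of all. All 5 genes passed the filter on detection calls. Hoxa7 passed it through its 2 oviduct arrays alone, and Hoxc4, Present on 1 array outside the oviduct, would not have passed without its oviduct arrays. The calls of both are thus partly set by the filter, though Hoxc4 kept its oviduct calls in the fit without it. The counts describe these genes and are no test of the group.

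**Figure D2:**
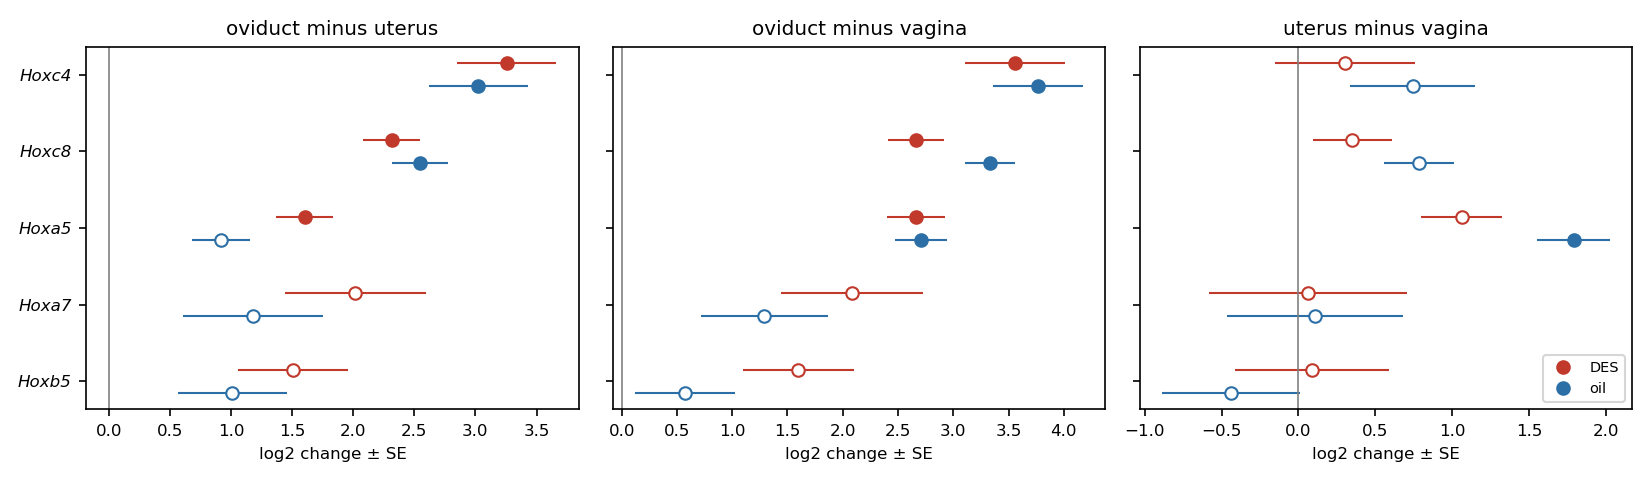
Log2 change between organs (x axis) with its SE for the 5 Hox genes (y axis), from the fit over all arrays, with DES (red) above oil (blue) for each gene. Filled symbols passed the adjusted p threshold of 0.05. Oviduct minus uterus and oviduct minus vagina are above 0 for all 5 genes in both treatments, from 0.57 to 3.77, where values against groups Absent on every array depend on the pseudocount.

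Along the levels of each gene over the 6 groups, only some steps were without overlap of arrays. Overlap was not counted over all probe sets, so these steps are descriptive only. For Hoxc4 the order of mean signal was oil oviduct, DES oviduct, oil uterus, oil vagina, DES uterus and DES vagina, and the step between DES oviduct and oil uterus was the only one without overlap of arrays. For Hoxc8 the order was oil oviduct, DES oviduct, oil uterus, DES uterus, oil vagina and DES vagina, and the first 3 steps were without overlap. The step from oil uterus to DES uterus was narrow, with a lowest oil signal of 126.7 and a highest DES signal of 125.9. That difference did not pass by limma (adjusted p = 0.189). For Hoxa5 the groups came in the same order as for Hoxc8, and the steps between DES oviduct and oil uterus, oil uterus and DES uterus, and DES uterus and oil vagina were without overlap. Hoxa7 and Hoxb5 had their highest mean in DES oviduct (236 ± 224 and 239 ± 63.6, against 132 ± 170.3 and 159 ± 32.7 in oil oviduct, SD, n = 3 each), and these neighbours overlapped.

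With DES, few of the 5 genes were called, and a change that was not called is not shown to be absent. In oviduct 1 of 5 fell (Hoxc8), where 3.39% of all probe sets fell, and in uterus 1 of 5 fell (Hoxa5), where 3.65% fell. In vagina 0 of 5 changed by limma, where 2.15% changed in either direction, and at an unadjusted p under 0.05 the count was also 0. The differences of the DES effect between organs passed for 0 of 5 genes in each pair of organs by limma, where 1.3% (uterus minus oviduct), 1.36% (vagina minus oviduct) and 0.222% (vagina minus uterus) of all probe sets were called, and at an unadjusted p under 0.05 the count was 0 as well. In the 3 organs together, Hoxc4, Hoxc8 and Hoxa5 had a negative log2 change each time, from -0.89 to -0.11, and most of these did not pass. Within the first scan day the vagina values of Hoxc4 (0.0915) and Hoxa5 (0.13) were positive. In oviduct, uterus and vagina, Hoxa7 had changes of 0.90, 0.06 and 0.10 and Hoxb5 of 0.49, -0.01 and -0.53, and none of these passed. Only 2 DES vagina arrays entered the fits, 1 from each scan day, against 2 first-day and 1 second-day arrays in oil vagina.

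The other Hox genes on the array were set beside these. Of 18 further genes of paralog groups 1 to 8, 9 were tested. Against uterus, 1 of the 9 was higher in DES oviduct and 0 in oil oviduct, and against vagina 3 were higher in each, beside the shares of all probe sets given above. Hoxc5, which lies next to Hoxc4, was higher in DES oviduct (102 ± 45.8) than in DES uterus (9.32 ± 3.32), at least 2.34-fold (adjusted p = 0.00484). The call did not hold within the first scan day (adjusted p = 0.0762). Hoxc5 was Absent on all uterus and vagina arrays and Present on 1 array of each oviduct group. It thus entered the fit through its oviduct arrays alone, so its calls, also in the counts above, are partly set by the filter on calls. Hoxc6, which lies between Hoxc5 and Hoxc8, was higher in oil oviduct (817 ± 36.3) than in oil vagina (178 ± 90.1), at least 4.38-fold (adjusted p = 0.00322, brighter of 2 tested probe sets), and in DES the log2 change between these organs was 1.31 (adjusted p = 0.124). Without oil oviduct arrays 1 and 3 and oil uterus array 3 this Hoxc6 call did not hold (adjusted p = 0.0780). Against oil uterus, neither Hoxc5 (log2 change 1.27, adjusted p = 0.0637) nor Hoxc6 (1.29, adjusted p = 0.152) passed for oil oviduct. Hoxb6, the neighbour of Hoxb5, rose in DES oviduct (395 ± 105) against oil oviduct (205 ± 21.2, log2 change 0.82, adjusted p = 0.0286). That rise did not pass within the first scan day (adjusted p = 0.170) or without DES oviduct array 2 or 3 or oil oviduct array 1 or 3 (at most 0.124). Nor did it pass without both oil oviduct array 1 and DES oviduct array 3 (adjusted p = 0.229). Hoxd8 was higher in oil uterus (808 ± 21.9) than in oil vagina (294 ± 57.9, log2 change 1.38, adjusted p = 0.00265). Hoxa3 was higher in DES oviduct (154 ± 51.9) than in DES vagina (25.2 ± 9.21), at least 2.95-fold (adjusted p = 0.0281), but not without DES oviduct array 1 or 2 or DES vagina array 2 or 3 (at most 0.244). Among the 8 tested of 16 genes of paralog groups 9 to 13, 5 were lower in oviduct than in uterus in DES and 5 in oil, where 1.41% and 0.461% of all probe sets were. Examples in DES were Hoxd10 (log2 change -3.43, adjusted p = 1.16e-06) and Hoxa11 (-2.93, adjusted p = 5.57e-07). The median over the 8 genes was -1.97 in DES and -1.64 in oil. Against vagina the calls went both ways: Hoxa9 was higher in DES oviduct and 5 genes were lower, and Hoxa9 and Hoxd9 were higher in oil oviduct and 2 genes lower. Of all 16702 probe sets, 455 were higher and 400 lower in oviduct than in vagina in DES, and 334 higher and 325 lower in oil.

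**Figure D3:**
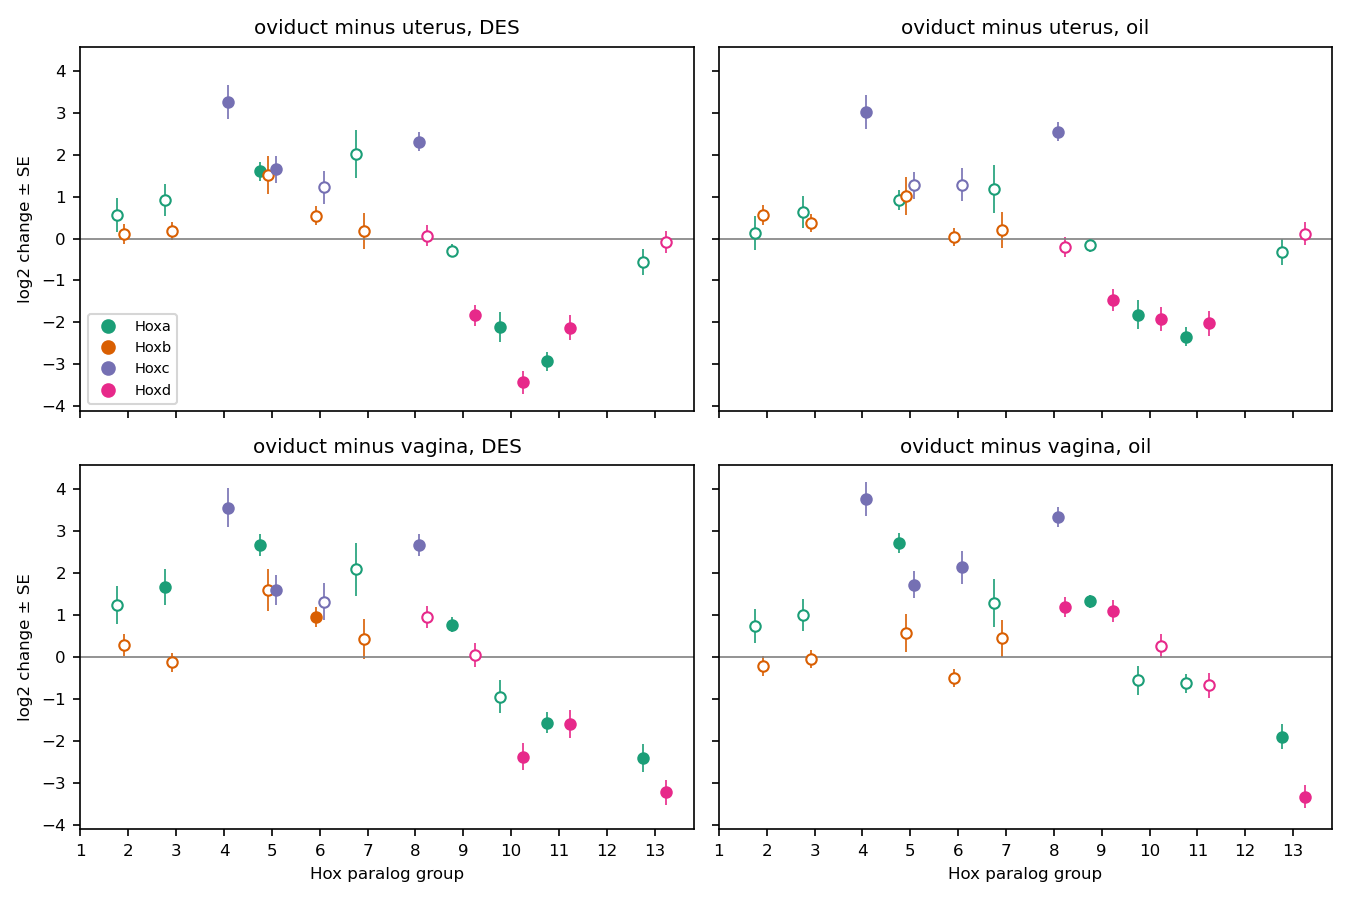
Log2 change of oviduct minus uterus (top) and oviduct minus vagina (bottom) with its SE (y axis), in DES (left) and oil (right), for every tested Hox gene by paralog group (x axis) and cluster (colour, with a small sideways offset). Filled symbols passed the adjusted p threshold of 0.05. Hoxc4 and Hoxc8 stand above 2 in every panel, and between oviduct and uterus the genes of groups 9 to 11 that passed lie below 0.

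Genes known to act with or upstream of Hox genes were described by lists. TALE homeodomain proteins of the Pbx, Meis and Pknox families bind DNA together with Hox proteins, and 7 of 9 were tested. Meis2 fell with DES in oviduct (702 ± 16.7 against 1245 ± 237, log2 change -0.78, adjusted p = 0.00320), in uterus (1149.5 ± 58.7 against 1704 ± 15.3, -0.56, adjusted p = 0.0311) and in vagina (1365 ± 349 against 2372 ± 303, -0.80, adjusted p = 0.0175). The uterine call did not hold without DES uterus array 1 or 2 or any oil uterus array (at most 0.111), nor the vaginal call without DES vagina array 2 or oil vagina array 1 (at most 0.388). Pknox1 fell with DES in uterus (449 ± 33.6 against 781 ± 91.8, -0.75, adjusted p = 0.00857), and no other TALE gene was called with DES. Calls among the 7 were thus 1 in oviduct, 2 in uterus and 1 in vagina, all falls. Of all 16702 probe sets, 3.39% fell in oviduct, 3.65% in uterus and 118 in vagina. Meis2 was also lower in oviduct than in vagina in DES (-0.91, adjusted p = 0.00296, or 0.120 without DES vagina array 3) and oil (-0.92, adjusted p = 0.00118), the reverse of the order of the members.

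Retinoic acid is a known inducer of anterior Hox genes, and 11 of 19 genes of its metabolism, transport and receptors, of the Cdx factors and of Gdf11 were tested. Aldh1a1, which makes retinoic acid, was higher in DES oviduct (1139 ± 49.9) than in DES uterus (70.2 ± 65.8, log2 change 3.70, adjusted p = 0.000111). It was likewise higher in oil oviduct (1272 ± 237) than in oil uterus (97.5 ± 66.3, log2 change 3.50, adjusted p = 0.000453). Aldh1a2, another such enzyme, fell with DES in uterus (416 ± 118 against 996 ± 183, -1.21, adjusted p = 0.00747). Crabp1, a cytoplasmic carrier of retinoic acid, fell with DES in oviduct (125 ± 42.5 against 1163 ± 241, -2.95, adjusted p = 4.97e-08) and in uterus (348 ± 42.0 against 1757 ± 161, -2.23, adjusted p = 8.58e-07). Stra6, a retinol transporter, fell with DES at least 3.57-fold in oviduct (adjusted p = 0.00645) and at least 6.26-fold in uterus (adjusted p = 0.000162). Stra6 was Present on 1 array of each oil group and on 0 arrays of each DES group. It entered the fit through oil arrays alone, so its calls are partly set by the filter on calls. In oviduct Rarb, a retinoic acid receptor gene that responds to its ligand, fell (198 ± 49.4 against 393 ± 25.8, -0.91, adjusted p = 0.00966). The Rarb call did not hold without DES oviduct array 3 (0.0528) or without that array and oil oviduct array 1 (0.0914). Rdh10, which makes retinaldehyde, rose in oviduct (2513 ± 177 against 1648 ± 216, 0.61, adjusted p = 0.00564). In all, DES gave 1 rise and 3 falls in oviduct, 3 falls in uterus and 0 changes in vagina among the 11 genes, where 4.39% of all probe sets rose and 3.39% fell in oviduct, 3.65% fell in uterus and 2.15% changed in vagina, with medians of -0.40, -0.33 and 0.15 beside -0.06, -0.05 and -0.02 over all genes. Between organs the calls among the 11 went both ways, beside the numbers for all probe sets given above. Against uterus, 3 were higher and 2 lower in DES oviduct, and 1 was higher and 1 lower in oil oviduct. Against vagina, 2 were higher and 4 lower in DES oviduct, and 3 higher and 2 lower in oil oviduct. Crabp2 was lower in oviduct each time, and Rarb was lower in DES oviduct than in DES vagina (-1.16, adjusted p = 0.00468). Polycomb and Trithorax proteins keep Hox clusters silent or active. Of 18 tested of 23 such genes, Ezh2 (719 ± 105 against 1219 ± 161, -0.74, adjusted p = 0.00275) and Suz12 (552 ± 63.8 against 881 ± 196, -0.63, adjusted p = 0.0349) fell in DES uterus, Suz12 not without DES uterus array 1 or 2 or oil uterus array 2 or 3 (at most 0.190). In oviduct and vagina 0 were called. Of all 16702 probe sets, 3.65% fell in uterus, 1300 changed in oviduct and 2.15% changed in vagina.

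Markers of other cell types were summed on each array, because an organ dissected at birth can hold more than its own wall. The mesothelial markers, of the surface layer of abdominal organs, had their highest sums in oviduct within each treatment, where the Hox genes were also highest. Of these markers, 0 of the 6 tested of 8 were Absent throughout a group. With treatment they moved the same way as Hoxc8 in oviduct and Hoxa5 in uterus, and not as Hoxa7 and Hoxb5 in oviduct, whose log2 changes were 0.90 and 0.49. The mesothelial sums were 2394 to 3077 in DES oviduct, 6689 to 7889.9 in oil oviduct, 1560.4 to 1976 in DES uterus, 3413 to 4094 in oil uterus, 799.8 to 836 in DES vagina and 808 to 1302 in oil vagina. For Hoxc4, Hoxc8 and Hoxa5, all DES oviduct arrays lay above all oil uterus arrays, whereas the mesothelial sums of DES oviduct lay below those of oil uterus. Of the 6, 4 fell with DES in oviduct (Upk3b, Wt1, Msln and Gpm6a), 2 fell in uterus (Upk3b and Wt1) and 0 changed in vagina. Of all probe sets, 3.39% fell in oviduct, 3.65% fell in uterus and 2.15% changed in vagina. Without oil oviduct arrays 1 and 3 and oil uterus array 3, which were high in muscle transcripts, Wt1 alone of the 4 still fell in oviduct (adjusted p = 0.0201, against 0.106 for Upk3b). Msln in oviduct did not pass without DES oviduct array 1 or oil oviduct array 1 or 3 (at most 0.131), Gpm6a not without any 1 of these or DES oviduct array 2 or 3 (at most 0.0783), and Wt1 in uterus not without any 1 of the 6 uterus arrays (at most 0.106). In oil, all 6 were higher in oviduct than in vagina, where 2% of all probe sets were. Against uterus, 2 of the 6 (Bnc1 and Gpm6a) were higher in oil oviduct, where 1.01% of all were. Neuron and Schwann cell markers (11 of 14 tested) summed to 1797 to 2137 in DES oviduct and 4965 to 7908 in oil oviduct, and Tubb3, Prph, Elavl4 and Sox10 were Absent in both. Germ cell and ovary markers (6 of 8 tested) summed to 499.5 to 817 in DES oviduct, where Ddx4, Dazl, Sycp3 and Figla were Absent, and to 1675 to 3995 in oil oviduct, where 0 were. Skeletal muscle markers (all 14 tested) summed to 991 to 1655 in DES oviduct and 1672 to 10803 in oil oviduct. In uterus they summed to 1354 to 1691 with DES and 1083 to 12151 with oil, where array 3 was high. In vagina the muscle sums were 16389 to 22704 with DES and 4070.3 to 15701 with oil. Without the high oil arrays (oil oviduct 1 and 3 and oil uterus 3), Hoxc8 in oviduct had a DES change of -0.94 (adjusted p = 0.168) and Hoxa5 in uterus one of -0.82 (adjusted p = 0.108), with 1 oil oviduct and 2 oil uterus arrays left. Hoxc4, Hoxc8 and Hoxa5 still passed between oviduct and vagina in both treatments, as did Hoxc4 and Hoxc8 between oviduct and uterus. The part of these cell types in the levels of the Hox genes was not tested.

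**Figure D4:**
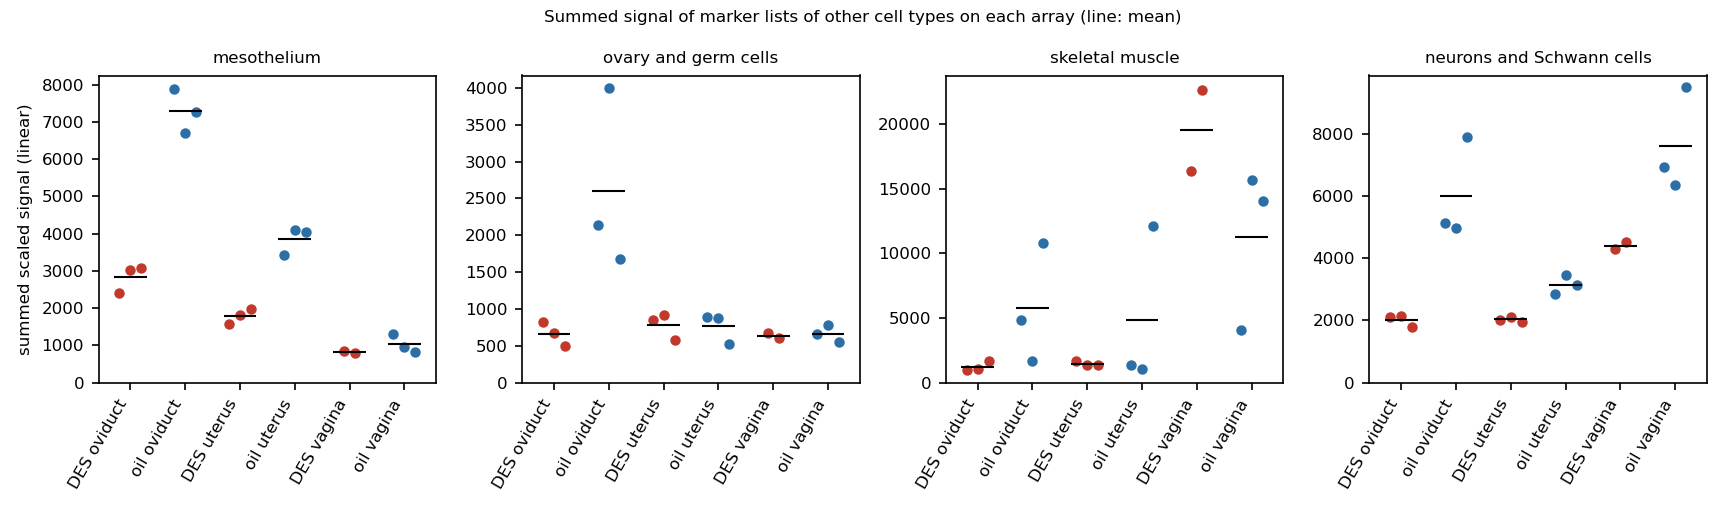
Summed scaled signal (y axis, linear) of the tested markers of 4 other cell types on each array (points), by group, with DES in red and oil in blue and group means as lines. The mesothelial sums follow the order oviduct, uterus, vagina within each treatment and are lower with DES in oviduct and uterus, while the skeletal muscle sums are high in DES vagina and spread widely in the oil groups.

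The genes most like each Hox gene were found by Pearson's r of log2 signal over the 17 arrays, among 2010 genes whose group means range over at least 1 log2 unit. These r values describe arrays that share organs, treatments and scan days, and they carry no test. For Hoxc4 the first 3 were Slit2, a secreted guidance cue (r = 0.937), Hoxc5 (r = 0.936) and Aldh1a1 (r = 0.924). For Hoxc8 they were Bnc1, a zinc finger gene that is also on the mesothelial list (r = 0.955), Oasl2 (r = 0.939) and Plxdc2 (r = 0.931). For Hoxa5 they were Lbp, the lipopolysaccharide binding protein (r = 0.942), Gstm2, a glutathione transferase (r = 0.928), and Upk3b, a uroplakin on the mesothelial list (r = 0.921). For Hoxa7 the leading gene was Ntn1, the guidance cue netrin (r = 0.840), followed by Tshz2 and Etfbkmt, and for Hoxb5 it was Elof1 (r = 0.8125), followed by Lpar3 and Tbxa2r. Among the members themselves, Hoxc4 went with Hoxc8 (r = 0.921) and with Hoxa5 (r = 0.889), and Hoxa7 and Hoxb5 were less like the others (r from 0.574 to 0.744). A gene on the mesothelial list was thus among the nearest 3 for Hoxc8 and for Hoxa5.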

How the data were processed

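RNA of 18 samples was measured on Affymetrix arrays, 17 of type MOE430A and 1 (DES vagina array 1) of type MG_U74Av2, which entered no fit. Per the file headers, the deposited tables hold signal (an intensity, linear), detection call and detection p-value; the software is not given in the sources used here. Each array was scaled to a mean of 500 after trimming 2% at each end, and log2(signal + 32) was taken, which understates changes of low genes. Probe sets Present on at least 2 arrays (16702) were fitted in limma 3.58.1 under R 4.3.3, using all 17 arrays, a mean for each group and an intensity trend, with 11 residual plus 5.81 prior degrees of freedom. Benjamini-Hochberg adjustment covered all probe sets of a contrast (threshold 0.05). For genes with more than 1 probe set, the brightest by mean log2 signal was used. A lower-bound fold takes a group Absent on every array with calls at its lowest Present signal per array, or its own signal if higher; oil oviduct array 1 has no calls and keeps its own. Named were the 5 members, up to 4 called and 2 other genes of each list and contrast, and the 3 genes most like each member. Members and lists were chosen with earlier results of these data known. The procedure was tested on simulated data. There, an added change of 1 log2 unit between DES and oil was called for 48% of altered probe sets in oviduct, 44% in uterus and 35% in vagina. Deviations from group means had a median r of 0.294 between same-numbered arrays (40 pairs, lowest 0.0856), 0.236 between other numbers of a scan day (25 pairs) and -0.344 across scan days (55 pairs), so the numbers were not taken as pairs. Upstream sequences are RefSeq's (GRCm38.p6). The number of arrays limits the precision. Alternatives were quantile scaling, other pseudocounts and call filters, no trend, blocks by scan day or replicate number, the first scan day alone and left-out arrays.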

Additional observations from a re-analysis of the deposited data

Results flagged for a closer look

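DES vagina array 1, on the older chip and outside every comparison, called Hoxc4 and Hoxc8 Present. After the same scaling, Hoxc4 had a signal of 126 (deposited detection p-value 0.0352) and Hoxc8 one of 139 (0.0394). Hoxa5 (35.3), Hoxa7 (24.3) and Hoxb5 (208) were Absent there. On MOE430A, Hoxc4 was Absent on both DES vagina arrays and Hoxc8 was Present on both. The probe sets of the chips differ, so the levels cannot be set against each other, and the difference was not tested.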

How the results depend on the processing

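Hoxc4 and Hoxc8 kept their calls for oviduct against uterus and vagina in both treatments, and Hoxa5 for oviduct against vagina in both and for oviduct against uterus in DES, under each of the alternatives run. For DES minus oil in oviduct, the count of members called, 1 as reported, was 0 with a pseudocount of 1, without the filter on calls, without DES oviduct array 1 and oil oviduct array 1, without oil oviduct array 1 and DES oviduct array 3, and without oil oviduct arrays 1 and 3 and oil uterus array 3. It ranged from 0 to 2 when each array was left out. In uterus it was 0 without the last 3 arrays and ranged from 0 to 1 with each array left out. With a block for the replicate number, or for the scan day, the counts were 2 for uterus minus vagina in oil, 5 for oviduct minus uterus in DES, 1 for uterus minus vagina in DES and 5 for oviduct minus vagina in DES, in place of 1, 3, 0 and 3. For oviduct minus uterus in oil it was 3 in place of 2 under both blocks, within the first day and with a pseudocount of 100, which also gave 4 in both DES oviduct comparisons. The count was also 2 for uterus minus vagina in oil under quantile normalization (left out in turn, 1 to 1), and 1 for uterus minus vagina in DES with a pseudocount of 1 or a filter on Present in every array of a group (left out in turn, 0 to 1). Left out in turn, both DES oviduct comparisons gave 3 to 4. The labels do not state whether the replicate numbers pair the arrays. The causes were not tested.

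Changes of sign touched no called value. Among the changes between treatments and organs and the DES-effect differences of Hoxc8 and Hoxa5, they were Hoxa7 for DES minus oil in oviduct (-0.13 without oil oviduct array 1 and DES oviduct array 3), in uterus (-0.0323 without the 3 oil arrays, and -0.0323 to 0.172 with each array left out) and in vagina (-0.0295 with the replicate block, -0.00548 with the scan day block, -0.16 within the first day, and -0.0624 to 0.27 left out in turn). Hoxb5 for DES minus oil in uterus gave 0.0276 under quantile normalization, 0.0161 with a pseudocount of 1 and 0.20 without the 3 oil arrays (-0.47 to 0.38), and in vagina -1.08 to 0.00793. Within the first day, DES minus oil in vagina was 0.0915 for Hoxc4 and 0.13 for Hoxa5 (left out in turn, -0.41 to 0.096), and DES uterus minus vagina was -0.14 for Hoxc4. For uterus minus vagina, the left-out ranges were -0.00575 to 0.24 (Hoxa7) and -0.70 to 0.0247 (Hoxb5) in oil, and -0.11 to 0.23 and -0.45 to 0.63 in DES. The difference of the DES effect on Hoxa5, vagina minus oviduct, was -0.0368 with the replicate block (-0.21 to 0.30). DES-effect differences of Hoxc4, Hoxa7 and Hoxb5, none of them called or printed above, also changed sign under some alternatives. Every member has 1 probe set, so the planned use of each probe set of a member gave no other value. The sets without oil oviduct array 1 and DES oviduct array 3 and without the 3 oil arrays were chosen after seeing the data.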
